A study of Mus musculus with 16 samples.

Results

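The miR-7 family was followed through small RNA libraries of C2C12, an established line of mouse muscle precursor cells that differentiates in low serum. It was defined as the 5 mature names miR-7a-5p, miR-7a-1-3p, miR-7a-2-3p, miR-7b-5p and miR-7b-3p among 2274 miRNA names in the tables, with the copies listed as miR-7a-1-5p and miR-7a-2-5p counted as miR-7a-5p. The family was chosen because miR-7a-5p was already known to be lower after differentiation in these libraries, so its values between the media are given below as a description with no test.

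The 16 libraries form 4 groups of 4. Control cells are labelled wild-type and came from control populations 1 and 2. The triple knockout (tKO) carries deletions of the miR-206 gene and of both miR-1a genes and came from clones 1 and 2. Both genotypes were sampled in growth medium (GM, 20% fetal serum) and after 3 days in differentiation medium (DM3, 2% horse serum), and all cells share the label C2C12 PAX7 NEG. Populations and clones are called line 1 and line 2 below, each with replicates 1 and 2. A group therefore rests on 2 lines and not on 4 independent ones, and a p-value over its 4 libraries measures the spread between libraries.

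miR-7 is an ancient animal miRNA best known from neurons and from endocrine cells, above all pancreatic islets. In a miRNA hairpin one arm usually supplies the guide strand that enters Argonaute, and the other supplies the passenger strand, which is mostly degraded. For miR-7 the guide is the 5p arm. Its levels are known to be controlled after transcription: RNA-binding proteins can restrain processing of the Mir7-1 hairpin outside the nervous system, the long noncoding RNA Cyrano directs the destruction of mature miR-7, and the circular RNA Cdr1as, which miR-671 can cleave, carries many miR-7 sites.

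All 5 names were matched to RefSeq (GRCm38.p6). The mature sequences are shown because the members differ by few bases; capitals mark the seed, bases 2 to 8.

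miR-7a-5p: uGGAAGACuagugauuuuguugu
miR-7b-5p: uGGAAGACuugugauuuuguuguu
miR-7a-1-3p: cAACAAAUcacagucugccaua
miR-7a-2-3p: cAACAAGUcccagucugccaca
miR-7b-3p: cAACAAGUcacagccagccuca

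The 5p members share 1 seed and differ over their shared length by A10U, where positions are counted from the 5′ end, miR-7a-5p has the first base and miR-7b-5p the second. The 3p members carry 2 different seeds. No other name of the 1738 mature RefSeq entries had the 5p seed. In the tables no other name had a mature sequence with it, and 33 reads under 6 other names held it, 25 of them under miR-6337-3p and 1 to 3 each under let-7e-3p, let-7e-5p, miR-1903-3p, miR-7035-3p and miR-671-5p.

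The hairpins are shown because the bases next to the arms tell which gene a read can come from; capitals mark the annotated arms.

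Mir7-1: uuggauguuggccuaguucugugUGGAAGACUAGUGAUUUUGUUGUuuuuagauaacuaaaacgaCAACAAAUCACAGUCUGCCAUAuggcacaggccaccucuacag
Mir7-2: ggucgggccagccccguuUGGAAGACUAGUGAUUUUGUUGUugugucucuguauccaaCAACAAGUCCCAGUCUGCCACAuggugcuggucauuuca
Mir7b: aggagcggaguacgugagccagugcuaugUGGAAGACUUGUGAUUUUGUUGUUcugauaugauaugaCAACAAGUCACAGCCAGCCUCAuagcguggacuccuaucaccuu

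Mir7-1 lies at chr13:58392779-58392886 on the minus strand. It is inside Hnrnpk, which codes for an RNA-binding protein, on the same strand and in an intron of all 12 GENCODE M21 transcripts that cover it. Mir7-2 at chr7:78888277-78888373 and Mir7b at chr17:56242988-56243098 are on the plus strand, and no other annotated gene overlaps either. Mir7-1 and Mir7-2 give the same 5p sequence and different 3p sequences.

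The libraries held 112792 to 6543570 reads. The tKO DM3 line 1 replicate 1 library stood apart. It was the smallest, 35.4% of its reads were listed under miR-6240 and miR-6236 against 0.555% to 17.1% elsewhere, and 18.9% of its reads were shorter than 18 nt against 1.88% to 12.8%. The labels were checked with miR-206-3p, the deleted muscle miRNA. In counts per 1000000 reads (CPM, mean ± SD, n = 4) it stood at 1156 ± 297 in growing controls and 34361 ± 16201 in differentiated controls, against 6.79 ± 6.38 and 21.8 ± 33.0 in the knockout. The summed level of 6 muscle markers, the deleted miRNAs among them, was 23032 to 59603 CPM in control DM3 and 853 to 1491 in control GM. In tKO it was 109 to 989 CPM in DM3 and 8.89 to 25.5 in GM. Of the markers of other cell types, miR-124-3p (neurons) and miR-142a-5p (blood) had 0 reads in all libraries and miR-375-3p (islets) had 36 reads in all, while 5 neural markers summed to 1090 to 2897 CPM, most of it miR-128-3p.

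The family held nearly all of its reads in a single member. miR-7a-5p had 241510 of the reads over the 16 libraries, miR-7b-5p 1043, miR-7a-1-3p 782, miR-7a-2-3p 148 and miR-7b-3p 66. What these reads were differed between members. For miR-7a-5p, 93.1% of reads matched a hairpin exactly over at least 16 nt and started within 3 bases of the annotated start, and for miR-7a-1-3p 92.3% did. All reads of miR-7a-2-3p and miR-7b-3p had a mismatch and were 13 to 16 nt long. No exact read of at least 16 nt was found for the 3p arm of Mir7-2 or Mir7b among 38541236 reads, which allows up to 0.0778 CPM over all libraries, for counting error only. The values listed under those 2 names are therefore not read as levels of those arms: miR-7a-2-3p had 0 to 8.07 CPM and miR-7b-3p 0 to 8.87 CPM over the libraries, and neither passed the filter on low counts.

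miR-7a-5p, the guide of Mir7-1 and Mir7-2, averaged 8755 ± 2291 CPM in growing control cells and 9896 ± 5745 in growing tKO cells, and 1407 ± 474 in control DM3 and 2006 ± 1205 in tKO DM3 (mean ± SD, n = 4). In control GM the libraries of line 1 had 6327 and 8032 CPM in replicates 1 and 2, and those of line 2 had 11808 and 8853. In tKO GM line 1 had 18152 and 9196 CPM and line 2 had 7078 and 5160. The 2 genotypes overlapped in GM, and the spread was widest in tKO, where clone 1 was above clone 2 by 2.56-fold in replicate 1 and 1.78-fold in replicate 2.

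In control DM3 line 1 had 815 and 1282 CPM of miR-7a-5p and line 2 had 1610 and 1922. In tKO DM3 line 1 had 1215 and 3703 CPM and line 2 had 1082 and 2024. The genotypes overlapped again, while the lowest GM library, at 5160 CPM, was above the highest DM3 library. In all 4 DM3 lines replicate 2 was above replicate 1; replicate 2 libraries were also the larger ones. By reads listed, miR-7a-5p stood between rank 10 and rank 40 of all names in GM libraries and between rank 48 and rank 105 in DM3 libraries.

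**Figure D1:**
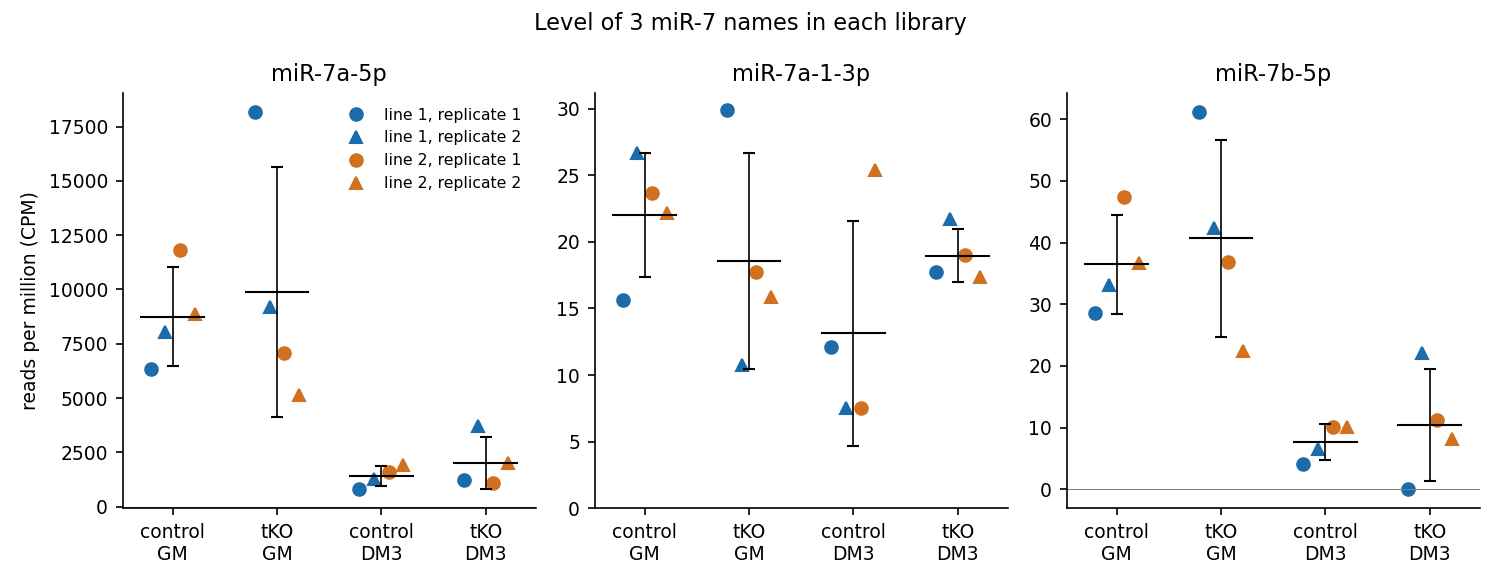
Level (CPM, vertical axis, linear) of miR-7a-5p, miR-7a-1-3p and miR-7b-5p in each library of the 4 groups (horizontal axis); points are libraries, colours lines, shapes replicates, and bars the mean ± SD of 4 libraries. The 8 GM libraries of miR-7a-5p lie between 5160 and 18152 CPM, above all 8 DM3 libraries, while the groups of miR-7a-1-3p overlap.

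For description, libraries of the same line and replicate number were set side by side, though the numbers are not taken as a pairing. miR-7a-5p was lower in DM3 than in GM in 8 of 8 of these, as it is in any other matching since the media do not overlap. How many of all names lie apart between the media in this way was not counted, here or for the values below. In control cells the GM level was 7.77-fold and 6.26-fold the DM3 level in line 1 and 7.33-fold and 4.61-fold in line 2. In tKO it was 14.9-fold and 2.48-fold in line 1 and 6.54-fold and 2.55-fold in line 2. The control values thus lay closer together than the tKO values.

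In the edgeR fit over 808 names, which scales libraries by TMM, a method that centres the bulk of the names, miR-7a-5p differed between DM3 and GM by -2.98 in control and -2.63 in tKO on the log2 scale. Of all names, 8 had a lower value in control and 9 in tKO, and the medians of all names were 0.03 and 0.01. For the background, 27.7% of names were called at an adjusted p under 0.05 in this comparison in control and 19.6% in tKO (31% and 16.4% without tKO DM3 line 1 replicate 1); nothing is read from this, since the family was chosen on it. When libraries were scaled by their total counts alone, the median of all names moved to 0.39 and 0.24, and miR-7a-5p was at -2.63 and -2.30. Reads of 18 to 25 nt alone gave -2.61 and -2.46. Leaving out any 1 library gave -3.38 to -2.73 in control and -3.03 to -2.01 in tKO; the last of these came without tKO GM line 1 replicate 1, its highest library.

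Measures of RNA quality and markers of other cell types were set beside the media. Reads shorter than 18 nt were 1.88% to 6.49% of a GM library and 2.96% to 18.9% of a DM3 library, and miR-6240 with miR-6236 took 0.555% to 5.41% and 1.60% to 35.4%. The liver marker miR-122-5p was at 3.904 to 75.5 CPM in GM and 0 to 8.96 in DM3, and it was lower in DM3 by the test (-3.46 in control and -2.89 in tKO on the log2 scale, edgeR adjusted p = 0.0008 and 0.0021). The 6 blood markers summed to 3.23 to 16.8 CPM in GM and 0 to 12.6 in DM3. The 2 endothelial markers summed to 2.42 to 27.9 and 4.07 to 20.2, and the 5 epithelial markers to 9.76 to 35.2 and 2.51 to 41.6. The media overlapped for these 3 lists. Only 1 blood, 1 endothelial and 2 epithelial markers were tested, and 0 of them were called, beside 27.7% and 19.6% of all names in control and tKO. With so few tested, little can be read from this. The part of RNA quality and of other cell types in the miR-7a-5p values was not tested. In bulk samples, fewer cells that hold a miRNA and less of it per cell cannot be told apart.

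The passenger arm differed less between the media than the guide. miR-7a-1-3p, the only 3p member with exact reads, averaged 22.04 ± 4.67 CPM in the control GM group, 18.6 ± 8.12 in tKO GM, 13.1 ± 8.45 in control DM3 and 18.97 ± 1.98 in tKO DM3 (mean ± SD, n = 4). These rest on 8 to 147 reads per GM library and 2 to 79 per DM3 library. In control GM line 1 had 15.6 and 26.7 CPM in replicates 1 and 2 and line 2 had 23.7 and 22.2, and in control DM3 line 1 had 12.1 and 7.56 and line 2 had 7.54 and 25.4. In tKO GM line 1 had 29.9 and 10.7 CPM and line 2 had 17.8 and 15.9, and in tKO DM3 line 1 had 17.7 and 21.8 and line 2 had 18.999 and 17.4. All 4 groups overlapped.

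miR-7a-1-3p differed between DM3 and GM by -0.95 in control and -0.24 in tKO on the log2 scale, where the tKO value turned to 0.06 under scaling by total counts and to 0.15 without tKO GM line 1 replicate 1. It was -1.95 in control without control DM3 line 2 replicate 2, which holds 76 of the group's reads. The 3p share of all family reads, which counts all 3 names, was 0.177% to 0.446% in the 8 GM libraries and 0.769% to 2.404% in the 8 DM3 libraries, and the media did not overlap. Its denominator is nearly all miR-7a-5p (99.2% of family reads), and the family was chosen on the fall of that member. The choice therefore favoured a higher share in DM3, here and for miR-7a-1-3p alone below. The share also counts miR-7a-2-3p and miR-7b-3p, whose values are not read as levels of those arms. Counted alone, miR-7a-1-3p had 0.258 ± 0.055 reads per 100 miR-7a-5p reads in control GM and 0.210 ± 0.086 in tKO GM, against 0.966 ± 0.512 in control DM3 and 1.17 ± 0.54 in tKO DM3.

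**Figure D2:**
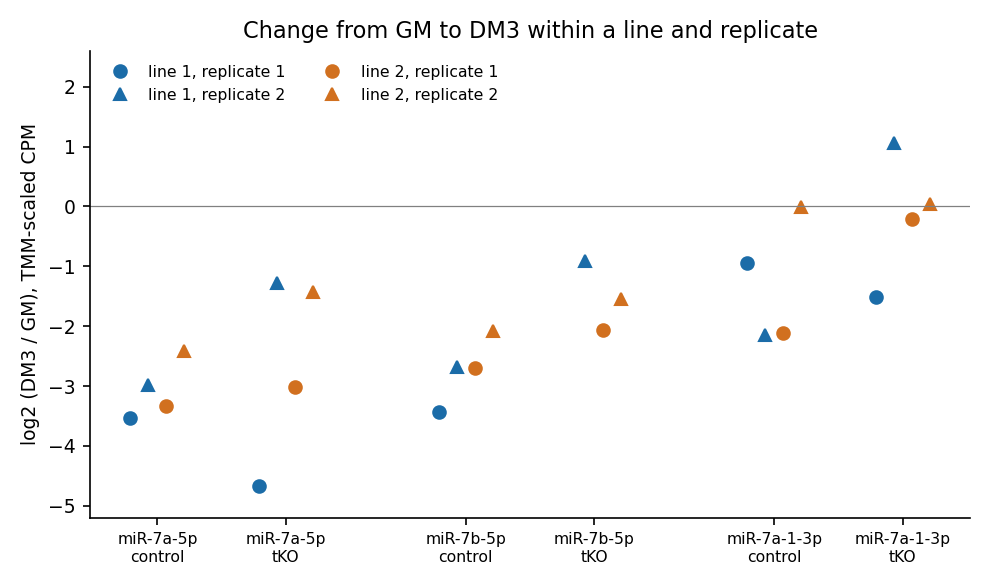
Log2 of the DM3 level over the GM level (TMM-scaled CPM, vertical axis) for libraries of the same line and replicate, by member and genotype (horizontal axis); each point sets a GM and a DM3 library side by side. All miR-7a-5p points lie below 0, from -4.66 to -1.28, and the miR-7a-1-3p points lie between -2.15 and 1.06.

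For scale, the same difference between arms was taken for 181 hairpins with both arms among the tested names, as the log2 change of the commoner arm minus that of the other. The median was 0.17 in control and -0.02 in tKO, with quartiles of -0.54 and 0.80 in control and -0.65 and 0.75 in tKO. For miR-7a-1 it was -2.04 in control and -2.39 in tKO. Here the commoner arm is miR-7a-5p, which Mir7-1 and Mir7-2 share in an unknown mix, while the other arm is from Mir7-1 alone, so the value is not that of a single hairpin. A lower value was found for 12 hairpins in control and 5 in tKO, among them miR-185, miR-320 and miR-675 in both. This places miR-7a-1 toward the end of the range without being the extreme, and it inherits the choice of the family on the miR-7a-5p change.

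**Figure D3:**
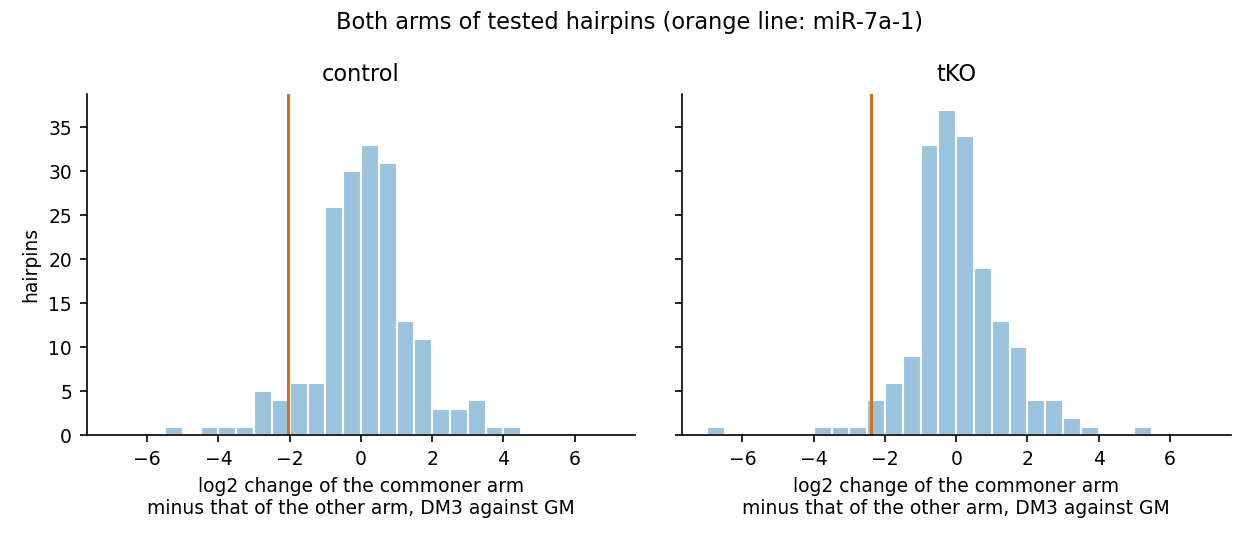
Number of hairpins (vertical axis) by the log2 change from GM to DM3 of the commoner arm minus that of the other arm (horizontal axis), for 181 hairpins in control and in tKO. The orange line marks miR-7a-1, whose 5p reads are pooled with those of Mir7-2, at -2.04 in control and -2.39 in tKO, left of most hairpins in both.

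Whether the deletions altered the family within a medium was tested across all names. In GM, 1.11% of the 808 names were called in tKO against control, in DM3 0.866%, and without tKO DM3 line 1 replicate 1 the shares were 1.86% and 6.16%. None of the 3 tested members was called in either medium. In GM miR-7a-5p differed by 0.12 (log2, SE 0.48, edgeR adjusted p = 0.992), with a 95% interval of 0.542-fold to 2.17-fold. In DM3 it differed by 0.47 (SE 0.48, edgeR adjusted p = 0.716), with an interval of 0.690-fold to 2.78-fold; it was 0.05 without tKO DM3 line 1 replicate 2 and 0.86 without control DM3 line 2 replicate 2. Each library held 137 to 57928 reads of miR-7a-5p. In GM the direction turned to -0.50 without tKO GM line 1 replicate 1, the library with 18152 CPM.

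miR-7a-1-3p differed between tKO and control by -0.33 in GM (SE 0.46, edgeR adjusted p = 0.959) and 0.38 in DM3 (SE 0.50, edgeR adjusted p = 0.791). Reads listed under miR-7b-5p, of which 81.3% have a mismatch, differed by 0.05 (SE 0.46, edgeR adjusted p = 0.992) and 0.57 (SE 0.54, edgeR adjusted p = 0.692). The intervals for these 2 members ran from 0.406-fold to 2.00-fold in GM and 0.626-fold to 3.24-fold in DM3, so changes within them are not excluded. Without control DM3 line 2 replicate 2 the DM3 value of miR-7a-1-3p was 1.39 (edgeR adjusted p = 0.229, the lowest with a library left out), and its GM value ran from -0.73 without tKO GM line 1 replicate 1 to -0.06 without tKO GM line 1 replicate 2. The DM3 value of miR-7b-5p ran from 0.07 without tKO DM3 line 1 replicate 2 to 1.01 without control DM3 line 2 replicate 2. For reads without mismatch it was 0.19. Its GM value turned to -0.33 without tKO GM line 1 replicate 1.

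The difference between the genotypes in their change from GM to DM3 was also tested. It was called for 0 of 808 names by edgeR, with 37 at an unadjusted p under 0.05 and 0 called by DESeq2, and for 1 name of 861 (0.116%) without tKO DM3 line 1 replicate 1. For miR-7a-5p the difference was 0.35 (log2, SE 0.68, edgeR adjusted p = 0.946), for miR-7a-1-3p 0.71 (SE 0.68, edgeR adjusted p = 0.940) and for miR-7b-5p 0.52 (SE 0.70, edgeR adjusted p = 0.940). The intervals ran from 0.479-fold to 3.41-fold for miR-7a-5p, so neither a smaller nor a larger change in tKO was shown. The miR-7a-5p difference turned to -0.06 without tKO DM3 line 1 replicate 2 and was 0.95 without tKO GM line 1 replicate 1. For miR-7a-1-3p the difference was 1.68 without control DM3 line 2 replicate 2. For miR-7b-5p it was 0.03 without tKO DM3 line 1 replicate 2, 0.94 without control DM3 line 2 replicate 2 and 0.09 for reads without mismatch.

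Most sequences under miR-7a-5p were 1 base longer than the annotated form in all groups. Of unmismatched reads from the annotated start, 76.0% had a templated part of 24 nt, 19.5% of 23 nt and 2.61% of 22 nt. The forms are shown with the last templated base in capitals.

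24-nt form: tggaagactagtgattttgttgtT
23-nt form, the annotated one: tggaagactagtgattttgttgT
22-nt form: tggaagactagtgattttgttG

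The 24-nt form had 170889 reads and made up 72.2% to 82.4% of such reads in control libraries and 71.5% to 76.7% in tKO libraries. Both Mir7-1 and Mir7-2 have a U at this position, so the form cannot be told from the 23-nt form with an added U, and it does not tell the hairpins apart. The tables list 81.0% of miR-7a-5p reads under the copy name miR-7a-2-5p and 0.903% under miR-7a-1-5p, although the 24-nt form matches both hairpins.

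**Figure D4:**
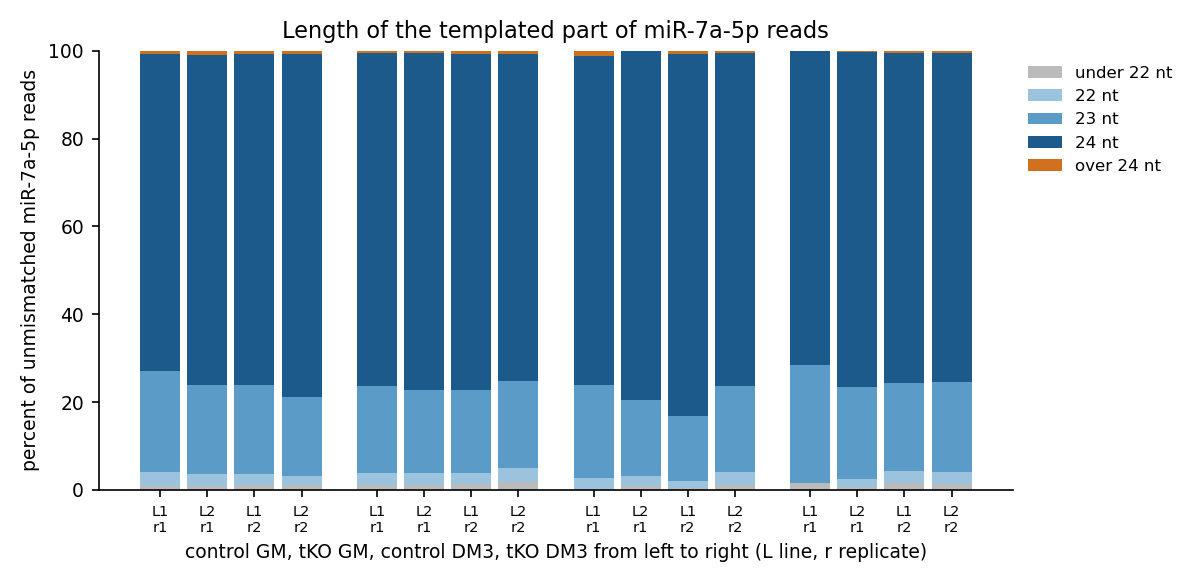
Percent of unmismatched miR-7a-5p reads from the annotated start (vertical axis) by the length of their templated part, in each of the 16 libraries (horizontal axis, by group, line and replicate). The 24-nt form makes up 71.5% to 82.4% of each library.

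The hairpins part at base 25, marked in capitals in the forms below, where Mir7-1 has U and Mir7-2 has G.

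Mir7-1, 25 nt: tggaagactagtgattttgttgttT
Mir7-2, 25 nt: tggaagactagtgattttgttgttG

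Reads of 25 nt or longer that matched Mir7-1 numbered 1583, and 22 matched Mir7-2. A read of 25 nt could also be the 24-nt form with an added U or G, and 84 reads of the 24-nt form were listed with a G tail. For longer reads, 33 reads of 28 nt or more ran into the loop of Mir7-1, and 0 did for Mir7-2. Of these, 10 ended at the last loop base before the 3p arm, at 42 nt, as shown with the bases after the annotated end in capitals.

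Mir7-1, 5p arm with loop: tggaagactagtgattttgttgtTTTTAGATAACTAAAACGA

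Another 183 reads came from the Mir7-1 strand just upstream of the 5p arm, and 0 from that of Mir7-2. The commonest, with 93 reads, ended at the base before the annotated start.

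Mir7-1, upstream fragment: atgttggcctagttctgtg

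By group, 93 of these upstream reads were in control GM, 74 in tKO GM, 4 in control DM3 and 12 in tKO DM3. These counts are not scaled for depth, and the groups held 14468033, 10990745, 4564458 and 8518000 reads in the same order. Mir7-1, the copy inside Hnrnpk, thus had exact 3p reads, loop reads and upstream reads. How much of the 24-nt form came from Mir7-2 cannot be told from these reads.

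Tails of miR-7a-5p, bases at the 3′ end that the hairpin does not encode, were mostly C. Over all libraries 11.1% of miR-7a-5p reads had a C tail, 3.44% an A tail, 1.45% a G tail and 0.045% a U tail, while over all names 6.05% had a C tail, 7.73% an A tail, 1.38% a G tail and 7.81% a U tail. The low share of U is partly set by the hairpin, because a U after the 22-nt or the 23-nt form counts as templated. Tails were frequent on the shorter forms: 72.4% of the reads of the 23-nt form had a tail and 52.5% a C tail, and 62.7% of the 5860 reads of the 22-nt form had a tail and 27.1% a C tail, against 1.51% with any tail on the 24-nt form. A line stood apart in its G tails, as seen after the values were known. In control GM line 1, 15.7% and 16.5% of the 23-nt form had a G tail in replicates 1 and 2, against 0.971% to 8.30% in the other 14 libraries, where control GM line 2 had 2.89% and 3.02%. In DM3 the same line had 2.56% and 1.84%. A C added to the 23-nt form cannot be told from a 24-nt form with its last base changed.

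Tailed reads made up 19.3% ± 2.46 of miR-7a-5p reads in control GM, 17.4% ± 0.972 in tKO GM, 16.8% ± 1.79 in control DM3 and 18.2% ± 0.654 in tKO DM3 (SD, n = 4). The difference of tKO from control was -1.89 points in GM (two-sided exact permutation test over 70 assignments, p = 0.171) and 1.41 points in DM3 (exact p = 0.229). Adjusted over the 10 tests of 5 measures in 2 media, both had p = 0.571 in these permutation tests. The GM difference was -0.778 without control GM line 1 replicate 1, and with any 1 library left out the DM3 difference ran from 0.775 without control DM3 line 1 replicate 2 to 2.08 without control DM3 line 1 replicate 1. The groups overlapped in both media.

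The annotated 23-nt form, counted with or without a tail, made up 18.9% ± 1.80 of miR-7a-5p reads in control GM and 18.1% ± 0.467 in tKO GM. In DM3 it made up 16.8% ± 2.46 in control and 20.2% ± 2.59 in tKO (SD, n = 4). Over all libraries 12075 of the 43740 reads of this form had no tail. The DM3 difference of 3.41 points had an exact permutation p of 0.114, and an adjusted p of 0.571 by the same test. It was 2.12 points without tKO DM3 line 1 replicate 1, whose 24.1% rested on 137 reads. The GM difference was -0.854 points (exact permutation p = 0.486, adjusted 0.952), and it was -0.089 without control GM line 1 replicate 1 and -1.56 without control GM line 2 replicate 2.

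The mean read length, tail included, was 23.92 ± 0.010 nt in control GM, 23.90 ± 0.025 in tKO GM, 23.87 ± 0.076 in control DM3 and 23.87 ± 0.031 in tKO DM3 (SD, n = 4). The GM difference of -0.027 nt had an exact permutation p of 0.114, adjusted 0.571. For reads without mismatch and for reads of 18 to 25 nt it was -0.0267 and -0.0272 nt, with all tKO libraries below all control libraries and the smallest p these exact permutation tests can give, 0.0286, adjusted to 0.286. The DM3 difference of -0.00025 nt had an exact permutation p of 1.0. The 3p share of family reads differed by -0.022 points in GM (exact permutation p = 0.714) and 0.109 points in DM3 (p = 0.771), both adjusted to 0.952. With 4 libraries against 4 the smallest p these tests can give is 0.0286, and a single measure at that value would have an adjusted p of 0.286 over the 10. None of the 10 passed, and a single difference could not have.

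The start of the guide was fixed, and that of the passenger was not. In each library 99.2% to 100% of unmismatched miR-7a-5p reads of at least 16 nt started at the annotated base. Of 722 exact miR-7a-1-3p reads, 77.3% did, and 21.5% started 1 base later, which moves the seed. The commonest reads of each kind are shown with their seeds in capitals.

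miR-7a-1-3p, annotated start, 360 reads: cAACAAATcacagtctgccata
miR-7a-1-3p, start 1 base later, 103 reads: aACAAATCacagtctgccata

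The later start was commoner in DM3. Summed over libraries it made up 33 of 314 reads (10.5%) in control GM and 19 of 170 (11.2%) in tKO GM, against 45 of 83 (54.2%) in control DM3 and 58 of 155 (37.4%) in tKO DM3. Most DM3 reads came from 3 libraries of replicate 2: control line 2 with 54.9% of 71 reads (Wilson 95% interval 43.4% to 66.0%), tKO line 1 with 35.9% of 64 (25.3% to 48.2%) and tKO line 2 with 41.6% of 77 (31.2% to 52.7%). The GM libraries with at least 20 reads had 7.46% to 15.0%. The remaining DM3 libraries held 1 to 13 reads and ranged from 0% to 100%, so the shift rests on those 3 libraries. The intervals cover counting error only, since reads amplified without molecular identifiers are not independent molecules.

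**Figure D5:**
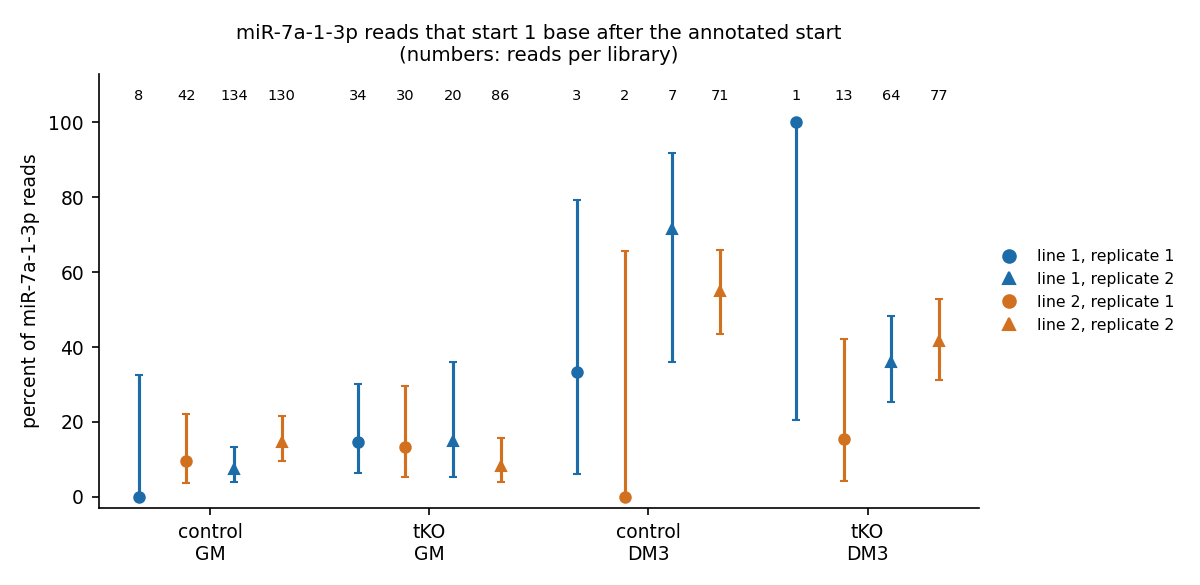
Percent of exact miR-7a-1-3p reads that start 1 base after the annotated start (vertical axis) in each library of the 4 groups (horizontal axis); bars are Wilson 95% intervals and the numbers above are reads per library. The GM libraries lie at 0% to 15.0%, and the DM3 libraries with over 60 reads at 35.9% to 54.9%.

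The same count was made for 325 names with at least 100 such reads in each medium, over summed libraries. The share of reads starting 1 base late differed between DM3 and GM by a median of 0 points, with quartiles of -0.056 and 0.566. It was higher in DM3 by over 10 points for 11 names and lower by over 10 points for 6. For miR-7a-1-3p the difference was 32.7 points, and 2 names had a larger one. Split by arm, 98 of the names were the rarer arm of their hairpin, as miR-7a-1-3p is, and 125 the commoner arm. Of the 11 names over 10 points 7 were rarer arms, miR-7a-1-3p, miR-30a-3p, miR-30d-3p and miR-30e-3p among them, 0 were commoner arms, and 4 were not among the hairpins with both arms tested. The median was 0 points for the rarer arms too, with quartiles of -0.074 and 1.03. The measure and the split were chosen after the values were seen.

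Mir7b's guide is miR-7b-5p, and most reads listed under that name do not carry its sequence, so the values here are those of the name and not a level of the guide. Reads listed under miR-7b-5p averaged 36.5 ± 8.01 CPM in the control GM group, 40.7 ± 16.0 in tKO GM, 7.65 ± 2.94 in control DM3 and 10.4 ± 9.13 in tKO DM3 (mean ± SD, n = 4). In control GM line 1 had 28.6 and 33.2 CPM in replicates 1 and 2 and line 2 had 47.4 and 36.7, and in control DM3 line 1 had 4.03 and 6.48 and line 2 had 10.05 and 10.03. In tKO GM line 1 had 61.1 and 42.4 CPM and line 2 had 36.8 and 22.5, and in tKO DM3 line 1 had 0 and 22.1 and line 2 had 11.3 and 8.22. The lowest GM library, at 22.5 CPM, was above the highest DM3 library by less than 1 CPM, and the 0 came from the library of 112792 reads, where 3 reads are 26.6 CPM. On the log2 scale DM3 differed from GM by -2.49 in control and -1.97 in tKO.

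Of 1043 reads listed under miR-7b-5p, 81.3% had a mismatch, and 192 (18.4%) carried the U of miR-7b-5p at position 10 with no mismatch. A read with a G at that position, which neither member has, accounted for 62.2%. Reads listed under miR-7b-5p made up 0.419% ± 0.022 of the reads of both 5p members in control GM and 0.436% ± 0.076 in tKO GM. In DM3 they made up 0.534% ± 0.059 in control and 0.508% ± 0.429 in tKO (SD, n = 4). This share differed between genotypes by 0.018 points in GM (exact permutation p = 0.657, adjusted 0.952) and -0.026 points in DM3 (exact permutation p = 0.857, adjusted 0.952). Without mismatched reads the share was 0.099% in control GM and 0.095% in tKO GM. Its mean was then lower in DM3, at 0.042% ± 0.084 in control and 0.046% ± 0.054 in tKO, whereas with all listed reads it was higher in DM3. The DM3 means include libraries with 0 such reads, which held 137 to 1188 miR-7a-5p reads. Where present in DM3, such reads were 0.157% of miR-7a-5p reads in control line 2 replicate 2. They were 0.095% and 0.076% in replicate 2 of tKO lines 1 and 2. GM libraries had 0.039% to 0.154%, so a lower share in DM3 is not shown.

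The reads that differ from the 24-nt miR-7a-5p form by a single base put this in scale. With positions counted from the 5′ end and the form's base first, A10T, which is the sequence of miR-7b-5p, had 155 reads, and the same change at the other 4 A positions had 53 to 89 reads. A10G had 484 reads against 541 to 726 at the other positions, and A10C had 26 against 8 to 20. Reads with the miR-7b-5p base were thus more frequent than the same change at any other A, by less than 2-fold over the highest of them, and reads with G at position 10 were less frequent than A-to-G differences elsewhere. The 484 reads with G outnumber the 155 reads of miR-7b-5p itself, while T-to-G differences from the 24-nt form ran at 0% to 0.181% at its 11 T positions. The origin of the reads with G was not tested. For the reads with the miR-7b-5p base, Mir7b and a changed miR-7a-5p read cannot be told apart one by one. Exact miR-7b-5p reads were found in 11 of 16 libraries, at 0.039% to 0.157% of the miR-7a-5p reads where present.

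The names whose pattern was most like miR-7a-5p were found by Pearson r of log2(TMM-scaled CPM + 1) over the 16 libraries, among 291 other names whose mean reached 100 CPM in some group. They were miR-31-3p (r = 0.97), miR-28a-3p (0.919), miR-125b-1-3p (0.916), miR-125a-3p (0.911) and miR-100-5p (0.908). The libraries share their media and their depth, so these values describe a common direction from GM to DM3. Of the 5, miR-125b-1-3p had the nearest change between media, -2.84 in control and -2.77 in tKO on the log2 scale, and the others had -1.76 to -1.17.

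miR-671-5p and miR-671-3p, the arms of the miRNA linked to Cdr1as, were both tested. Neither differed between genotypes in GM (edgeR adjusted p = 0.992 and 0.959) or in DM3 (0.724 and 0.967). miR-671-3p was lower in DM3, with a log2 change of -1.58 in control (SE 0.40, edgeR adjusted p = 0.0056) and -1.28 in tKO (SE 0.39, edgeR adjusted p = 0.0283). miR-671-5p had log2 values of 0.93 and 0.54 with edgeR adjusted p of 0.0777 and 0.341. The arms thus had opposite signs, and the difference between them was not tested.

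Of 14 miRNAs known from neural and endocrine cells, where miR-7 is best known, 9 were tested. In tKO against control 1 was higher and 1 lower in GM, and likewise in DM3, beside 1.11% and 0.866% of all names called, with median log2 changes of -0.13 and -0.32 against 0.11 and 0.08 for all names. miR-9-5p, a miRNA of neural progenitors, was lower in tKO, by -3.87 in GM and -2.35 in DM3 (SE 0.54 and 0.52, edgeR adjusted p = 0.0002 and 0.0325). miR-129-5p was higher, by 2.99 and 2.82 (SE 0.66 and 0.66, edgeR adjusted p = 0.0242 and 0.0462). In DM3 against GM 1 of the 9 was higher in each genotype, miR-212-3p, by 4.61 in control and 2.75 in tKO (SE 0.65 and 0.61, edgeR adjusted p = 0.0001 and 0.0037), and 0 were lower, beside 27.7% and 19.6% of all names called. The list's medians there were 0.01 and 0.12. miR-375-3p, the leading islet miRNA, was not tested and was at 0 to 2.16 CPM, so the abundance of miR-7a-5p in these myoblasts was not accompanied by that marker.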

How the data were processed

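Small RNA of 16 libraries was size-selected for inserts of 15 to 50 nt, per the labels' protocols. The authors' tables are unitas output with its mouse setting, per the file headers. The authors deposited expected counts per sequence and assigned name, without normalization, fractional where a read matches several sequences, and split by added 3′ bases, per the file headers. The submitters' processing notes name cutadapt 1.15, STAR 2.5.4 and mm10 without roles. The unitas version, miRBase release and filters are not given in the sources used here.

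Expected counts were summed per name (2510 listed, 236 merged) and rounded. edgeR 4.0.16 (R 4.3.3; filterByExpr with a smallest count of 10, TMM, robust quasi-likelihood F tests, Benjamini-Hochberg over all names) fitted all libraries with 1 coefficient per group, and was tested on simulated data. Intervals of differences are 95% t intervals from the fit's standard errors. Shares and lengths were compared by two-sided exact permutation tests. CPM are reads per 1000000 of a library's total; 3 counts are 0.458 to 26.6 CPM.

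The members, the names and lists beside them, and the tests were chosen with earlier results of these data known. Names shown by rule are the members, names with their seed, the 5 most alike, miR-671, miR-206-3p, and, of the neural and endocrine list, those called plus miR-375-3p. Cell-type markers are named as checks, and names set beside the arm and start comparisons and miR-133a-3p were chosen after their values were seen.

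Replicate numbers come from the labels. Deviations from group means correlated at a mean of 0.101 over 48 pairs of libraries with the same number (-0.466 to 0.638) and -0.095 over 48 with different numbers, so the numbers were not taken to pair libraries in a test. Libraries of the same line and number are set side by side for description only.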

Additional observations from a re-analysis of the deposited data

Results flagged for a closer look

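Across 44 sets of 4 libraries (members and measures by group), 2 values lay far from the other 3 by Dixon's ratio at its 95% limit. Chance gives about 1 in 20. miR-7a-2-3p was at 8.066 CPM in control DM3 line 1 replicate 1 against 2.159 to 2.512 in the other 3 libraries (ratio 0.940); in that library 3 reads are 12.1 CPM, and no read of this name matched its arm. The annotated form, counted with or without a tail, was the other case, in tKO DM3 line 1 replicate 1. It made up 24.09% of miR-7a-5p reads there against 18.69% to 19.18% in the other 3 libraries (ratio 0.909). That library had 137 miR-7a-5p reads.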

How the results depend on the processing

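No tested contrast of a member passed the threshold under the alternatives run (lowest adjusted p 0.229). For the 5 measures the adjustment leaves a single difference no chance to pass, so this says nothing of their stability. The replicate block changed no call of a member (miR-7a-5p: 0.15 in GM and 0.45 in DM3, log2) and gave 10, 7, 0, 241 and 168 names called in GM, in DM3, for the difference between genotypes, and for DM3 against GM in control and tKO, against 9, 7, 0, 224 and 158. Names called in GM and DM3 were 18 and 14 without a filter, 18 and 14 for reads without mismatch, 16 and 15 for 18 to 25 nt, and 20 and 19 with DESeq2. Sequences of 18 to 25 nt gave 1 name for the difference and 139 in control. Fits of only the groups compared gave 4 in DM3 and 84 for DM3 against GM in tKO. Leaving out a library gave 5 to 16 names in GM, 5 to 53 in DM3, 0 to 1 for the difference, 160 to 267 in control and 109 to 156 in tKO. The 53 and the 1 came without tKO DM3 line 1 replicate 1. The miR-7b-5p share reversed to -0.0044 points in GM and 0.0039 in DM3 without mismatched reads, and in DM3 to 0.061 with 18 to 25 nt and 0.0054 with reads summed per line (2 lines against 2, smallest p 0.333); the 3p share in DM3 reversed to -0.172 with reads summed per line. The cause was not tested. With a library left out, differences ran from -0.0094 to 0.051 (GM) and -0.201 to 0.143 (DM3) for the miR-7b-5p share, -0.076 to 0.014 and -0.116 to 0.457 for the 3p share, and -0.035 to 0.024 nt for length in DM3. Log2 differences ran from -0.50 to 0.49 for miR-7a-5p in GM, -0.0599 to 0.95 for its difference between genotypes, and -0.33 to 0.36 for miR-7b-5p in GM. Depth limits the 3p and miR-7b-5p values, with 3 to 109 reads behind the 3p share and 0 to 69 under miR-7b-5p per DM3 library.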

Other observations

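miR-133a-3p, a muscle miRNA that is not among the deleted ones, was set beside miR-7a-5p in the DM3 libraries after the values were seen. Its mean was 345 ± 297 CPM in tKO DM3 and 1586 ± 447 in control DM3, a log2 difference of -2.13 (SE 0.58, edgeR adjusted p = 0.0969). Whether the deletions act on its level directly was not tested. In tKO DM3 the libraries with 1082, 1215, 2024 and 3703 CPM of miR-7a-5p had, in the same order, 762, 316, 236 and 65.8 CPM of miR-133a-3p, so that the library with more of the one had less of the other. In control DM3 the libraries with 815, 1282, 1610 and 1922 CPM of miR-7a-5p had 2190, 1130, 1424 and 1601 CPM of miR-133a-3p, with no such order. These are 4 libraries of 2 lines per genotype, and the relation was not tested.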
